A study of Mus musculus with 8 samples.

Results

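Aminoacyl-tRNA synthetases were followed in mouse hematopoietic stem and progenitor cells (HSPCs) after a single dose of interferon alpha (IFNα). The 36 genes were taken by symbol, 20 for cytosolic and 16 for mitochondrial enzymes, out of 27998 features counted in each library. All 36 were found and all 36 passed the filter on low counts when cells were summed over the whole compartment. The symbols are those in use when the libraries were counted, so that Nars, Sars and Wars are the genes now also written Nars1, Sars1 and Wars1.

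Bone marrow came from wild-type mice of 12 to 14 weeks, with no transgene in any group. Treated mice received recombinant mouse IFNα under the skin at 50000 IU for each 20 g of body weight and were examined after 3, 24 or 72 h, while control mice received PBS only. Each time point held 4 mice, whose cells were marked with hashtag antibodies (oligonucleotide-tagged antibodies that name the mouse). Lineage-negative, c-Kit+ cells were sorted, with extra CD150+ CD48- CD34- stem cells added. The cells of a time point were captured as 1 single-cell library. A time point was thus also a library, and time and library cannot be told apart here. Any difference between the sorts of the time points cannot be told apart from time either. The unit of replication was the mouse, and p-values measure the spread between mice of 1 library per time point. In the test between classes, where the mouse was a block, this is the spread of the difference between classes within a mouse.

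Synthetases join amino acids to their tRNAs, the step that fixes the genetic code before the ribosome is reached. Cytosolic and mitochondrial translation use separate enzymes for most amino acids, all of them encoded in the nucleus, and several cytosolic enzymes sit together in a multi-synthetase complex. When amino acids run short, the transcription factor ATF4 is known to act on many cytosolic synthetase genes, and interferons are known to induce Wars.

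Promoter sequence was examined because both inputs have recognisable DNA elements. RefSeq promoters of 300 bases (250 before and 50 after the start site, GRCm38.p6) were matched for 26 of the 36 genes. Those of Cars, Hars, Lars, Mars, Nars, Rars, Vars, Wars, Hars2 and Pars2 were not matched. The C/EBP-ATF response element (CARE), searched as TGATGNAA on both strands, stood in 5 of the 26, namely Aars, Gars, Iars, Tars and Yars, and in 3.97% of all 32851 promoters. The windows below, 1 for each gene, run along the gene's own strand in 30 bases, with the element in capitals. For Aars the match that starts at base 10 from the start site is shown, and a further match, at base -112, is not.
Aars, chr8:111033840-111033869, plus strand: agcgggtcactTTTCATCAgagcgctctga
Gars, chr6:55037960-55037989, plus strand: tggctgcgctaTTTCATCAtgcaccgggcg
Iars, chr13:49682126-49682155, plus strand: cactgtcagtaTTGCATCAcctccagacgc
Tars, chr15:11399655-11399684, minus strand: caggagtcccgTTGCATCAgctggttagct
Yars, chr4:129189895-129189924, plus strand: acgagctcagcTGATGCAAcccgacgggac

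The interferon-stimulated response element, searched as GAAANNGAAA on both strands, stood in 1 of the 26 promoters and in 3.44% of all promoters. It is shown because IFNα signals through this element.
Qars, chr9:108507796-108507825, plus strand: tgctaaacacTTTCCCTTTCcacgcccatg
The gamma-activated site TTCNNNGAA, read alike on both strands, was found for Aars, Kars and Nars2 and in 8.30% of all promoters. The E-box CACGTG was found for Aars, Farsb, Iars, Tars and Ears2 and in 7.15% of all promoters. A match describes the letters only, and the absence of one says only that these letters are not in the window. Among the 5 genes with a CARE match, Tars rose at 3 h in the whole compartment, Aars fell at 24 and 72 h, and Yars fell at 72 h. Gars and Iars passed the test there at no time. Within the cell classes described below, Tars rose in myeloid cells at 3 and 24 h. Gars rose in myeloid cells at 3 h and in LMPP-like (lymphoid-primed) cells at 72 h. Aars fell in myeloid cells at 24 and 72 h and in erythroid cells at 24 h. Yars fell in erythroid cells at 3 h, and Iars passed in no class. Qars, with the interferon element, fell at 3 and 72 h in the whole compartment and at 3 h in myeloid cells.

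After removal of multiplets, hashtag-negative barcodes and low-quality cells, 10046 of 13310 barcodes were kept, 2474 in control and 1661, 3462 and 2449 at 3, 24 and 72 h. Mice held between 58 and 1240 cells and between 1102706 and 26446327 unique molecular identifiers (UMIs), and the synthetases took 92896 UMIs in control and 38359, 126879 and 71120 in the treated libraries. The 3 h library stood apart, with 17.2% hashtag-negative barcodes against 4.37 to 5.45% elsewhere and a median of 12020 UMIs per cell against 14760 to 18960. Control mouse 4 also stood apart, with the 58 cells and with Isg15, an interferon-stimulated gene, at 64.4 counts per 1000000 UMIs (CPM) against 18.7 to 27.2 in the other control mice. The 6 interferon genes checked all rose at 3 h, Isg15 to 1406 to 1689 CPM, and at 24 h, and none passed the test as higher at 72 h. Libraries shared at most 1 barcode. Marker lists describe the cells and cannot test the sort. The HSC list summed to 192 to 255 CPM in control mice and 285 to 500 in treated mice, with no marker at 0. The myeloid list was at 13920 to 19050 in control and at 7401 to 11470 after treatment. The B cell list summed to 42.6 to 54.7 CPM in control mice and 31.4 to 73.6 in treated mice. The T or NK cell list summed to 341 to 622 CPM in control mice and 295 to 431 in treated mice. No marker found for these lists was at 0 in control, while Ms4a1 and Cd3e were at 0 in every treated library. The dendritic cell list summed to 203 to 221 CPM in control and 994 to 1132 at 3 h, with Siglech and Cd209a at 0. It was at 410 to 443 at 24 h and 172 to 197 at 72 h. Of the clusters of control cells described below, cluster 14 was named monocyte-like, led by Cd74, H2-Aa and Lgals3. It held 35 control cells and 5, 5 and 6 cells at 3, 24 and 72 h, and was not compared as a class. No cluster was named for B, T or NK, or dendritic cells. A list sum does not show which cells held the counts. The part of such cells in the results was not tested. In summed counts, fewer cells of a type and less RNA per cell cannot be told apart.

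Across the whole compartment, 9 synthetases rose and 4 fell at 3 h, 6 rose and 4 fell at 24 h, and 5 rose and 10 fell at 72 h (edgeR quasi-likelihood test, Benjamini-Hochberg adjusted p under 0.05 over 12042 genes). Of the cytosolic enzymes, 7 of 20 rose and 3 fell at 3 h, 4 rose and 2 fell at 24 h, and 4 rose and 8 fell at 72 h. Of the mitochondrial enzymes, 2 of 16 rose and 1 fell at 3 h, 2 rose and 2 fell at 24 h, and 1 rose and 2 fell at 72 h. Among all genes tested, 19.7% rose and 19.2% fell at 3 h, 14.5% and 13.8% at 24 h, and 18.9% and 18.5% at 72 h. Called synthetases were thus near the background shares at 24 h, with a larger share of rises and a smaller share of falls than all genes at 3 h, and the reverse at 72 h. No synthetase moved past a log2 fold change of 1 in either direction, which 6.90% of genes did at 3 h, 2.22% at 24 h and 2.86% at 72 h. Over the 36 genes the median log2 fold change was 0.00 at 3 h, 0.03 at 24 h and 0.00 at 72 h, against -0.03, 0.00 and 0.02 over all genes. The 3 comparisons used the same 4 control mice.

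**Figure D1:**
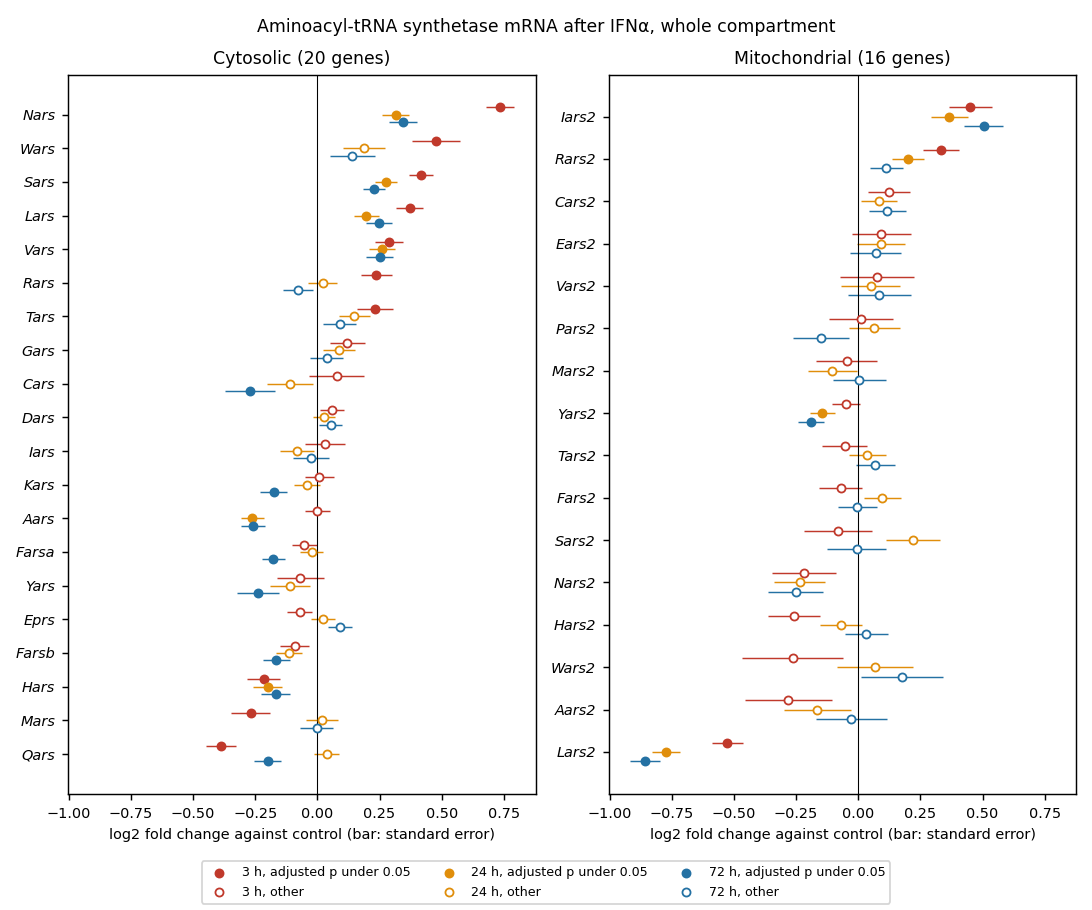
Log2 fold change against control of each synthetase in the whole compartment, with cytosolic enzymes at left and mitochondrial enzymes at right; points are the 3, 24 and 72 h contrasts, bars are standard errors, and filled points have an adjusted p under 0.05. Nars stands furthest right, at 0.73 at 3 h, and Lars2 furthest left, at -0.86 at 72 h.

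The balance of rises and falls at 3 h rested on the scaling between libraries. TMM factors, which centre most genes, gave the counts above, with 2368 genes higher and 2307 lower. Scaling by library size alone gave 1591 higher and 4632 lower, a median over all genes of -0.18, and 7 synthetases higher with 13 lower. Rars and Tars lost their calls under that scaling, at log2 fold changes of 0.09 and 0.08, and the other 7 kept theirs. No called synthetase changed direction.

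Nars, the cytosolic asparaginyl enzyme, encoded on chromosome 18, showed the largest rise. It stood at 113, 106, 102 and 87.9 CPM in the control mice and at 187, 173, 166 and 176 at 3 h. It was at 136, 121, 127 and 140 at 24 h and at 136, 128, 137 and 135 at 72 h. Every treated mouse at each time was above every control mouse, and the 3 h mice were above all others. The log2 fold change was 0.73 ± 0.06 (SE) at 3 h with an edgeR adjusted p of 5.17e-10, 0.31 ± 0.05 at 24 h and 0.35 ± 0.06 at 72 h.

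Sars, the cytosolic seryl enzyme on chr3:108424865-108445209, minus strand, rose at every time, by less than Nars. Control mice held 73.9, 69.0, 74.0 and 71.3 CPM. The values were 98.4, 91.3, 93.2 and 103 at 3 h, 87.2, 84.4, 89.3 and 88.7 at 24 h, and 82.5, 81.9, 86.4 and 87.6 at 72 h. No treated mouse overlapped the controls, and the log2 fold change was 0.42 ± 0.05, 0.27 ± 0.04 and 0.23 ± 0.05 (edgeR adjusted p 2.79e-07, 8.47e-05 and 5.01e-04).

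Wars, the tryptophanyl enzyme on chr12:108860030-108894174, minus strand, passed the test at 3 h and not later. Control mice held 20.3, 18.0, 18.2 and 21.8 CPM, and the 3 h mice 25.6, 23.5, 29.3 and 26.0, with no overlap. The 24 h mice, at 21.1, 20.2, 19.3 and 25.5, and the 72 h mice, at 19.8, 20.5, 20.8 and 22.6, overlapped the controls. The log2 fold change was 0.48 ± 0.10 at 3 h (edgeR adjusted p 4.71e-04), against 0.19 ± 0.09 at 24 h (adjusted p 0.108) and 0.14 ± 0.09 at 72 h (adjusted p 0.238). The difference between time points was not tested.

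Vars and Lars, the valyl and leucyl enzymes of the cytosol, rose at all 3 times. Vars had log2 fold changes of 0.29, 0.26 and 0.25, and its mice ranged from 55.7 to 61.6 CPM in control and from 68.2 to 78.2 after treatment. Lars had log2 fold changes of 0.37, 0.20 and 0.25. Rars at 0.24 and Tars at 0.23 rose at 3 h only among the times that passed the test, and Tars lost its call when any of 3 mice was left out (control mouse 2, or 3 h mouse 1 or 4, with the log2 fold change down to 0.17).

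**Figure D2:**
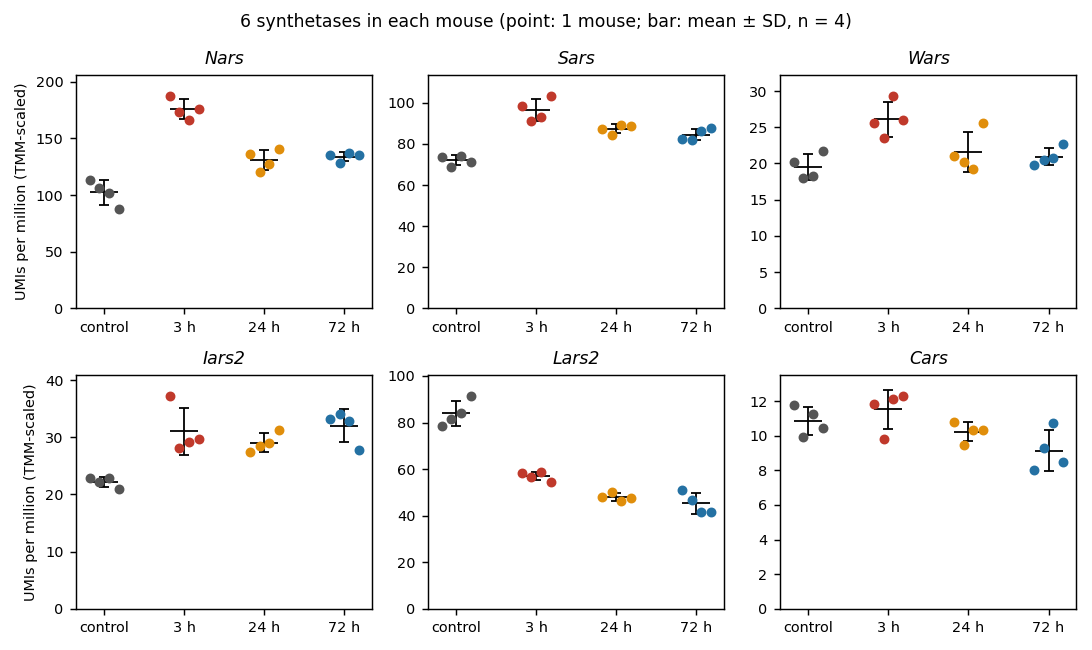
CPM (TMM-scaled) of the synthetases described mouse by mouse, at control, 3, 24 and 72 h; each point is 1 mouse and the bar is the mean ± SD of 4 mice. Nars at 3 h sits at 166 to 187 against 87.9 to 113 in control, and Lars2 after treatment at 41.6 to 58.6 against 78.6 to 91.4.

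Iars2, the mitochondrial isoleucyl enzyme on chr1:185284726-185329396, minus strand, rose at every time. Control mice held 22.8, 22.1, 22.9 and 20.9 CPM. The 3 h mice held 37.2, 28.1, 29.1 and 29.7, the 24 h mice 27.4, 28.4, 29.0 and 31.3, and the 72 h mice 33.2, 34.1, 32.9 and 27.7. All 12 treated mice were above the controls, and the log2 fold changes were 0.45 ± 0.09, 0.37 ± 0.07 and 0.50 ± 0.08 (edgeR adjusted p 2.15e-04, 8.27e-04 and 2.80e-05). Rars2, the mitochondrial arginyl enzyme, rose by a log2 fold change of 0.33 at 3 h and 0.20 at 24 h. The call at 24 h was lost without control mouse 1 or 3 or 24 h mouse 1 or 2, at a log2 fold change as low as 0.16.

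Lars2, the mitochondrial leucyl enzyme on chr9:123366927-123462666, plus strand, fell the furthest of the 36 genes. Control mice held 78.6, 81.7, 83.9 and 91.4 CPM. The 3 h mice held 58.2, 56.7, 58.6 and 54.5, the 24 h mice 48.0, 50.2, 46.3 and 47.6, and the 72 h mice 51.1, 46.6, 41.6 and 41.6. No treated mouse reached the lowest control, and the means were lower at 24 and 72 h than at 3 h. The log2 fold change was -0.53 ± 0.06 at 3 h, -0.77 ± 0.06 at 24 h and -0.86 ± 0.06 at 72 h (edgeR adjusted p 5.29e-07, 8.33e-10 and 2.68e-10).

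The Lars2 transcript of 3894 bases shares 72 bases, at 98.6% identity, with the annotated gene Gm15564, ending 545 bases before the transcript's end. Gm15564 itself had 0 to 3 UMIs per mouse. Gm42418, a gene that overlaps ribosomal RNA sequence, ranged from 2220 to 2377 CPM in control and was at 2341 to 2822, 1703 to 1818 and 2099 to 2205 at 3, 24 and 72 h. AY036118, from the same kind of locus, was at 39.2 to 44.9 in control and at 59.1 to 114 after treatment. Gm42418 overlapped the control mice at 3 h and was below all of them at 24 and 72 h. AY036118 was above every control mouse at each time. AA474408, also checked, was at 3.35 to 4.35 CPM in control and at 2.18 to 2.91, 2.58 to 3.89 and 3.93 to 4.67 at 3, 24 and 72 h. The search, at 95% identity or more, listed shared sequence with Gm15564 only. The part of shared sequence in the Lars2 result was not tested.

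Qars, the glutaminyl enzyme, fell at 3 h by 0.39 on the log2 scale, with mice at 41.2 to 43.8 CPM against 54.4 to 67.9 in control, did not pass the test at 24 h (0.04, adjusted p 0.621) and fell again at 72 h by 0.20. Hars, the histidyl enzyme, fell at all 3 times, by 0.22, 0.20 and 0.17. Its call was lost at 3 h without 3 h mouse 3 (-0.18), at 24 h without control mouse 1 or 3 or 24 h mouse 2 (changes down in size to -0.17), and at 72 h without control mouse 1 or 3 or 72 h mouse 2 or 4 (to -0.14). Mars, the methionyl enzyme, fell at 3 h only among the times that passed, by 0.27. Aars, the alanyl enzyme, had a log2 fold change of 0.00 at 3 h and fell by 0.26 at both 24 and 72 h. Its mice at 24 h, 99.5 to 106 CPM, and at 72 h, 100.3 to 106, overlapped the lowest control mouse at 104. The counts of Aars and Exosc6 could be mixed, since both lie on the same strand over 1326 bases and Exosc6 had no row of its own in the tables used. Yars2, the mitochondrial tyrosyl enzyme, fell by 0.14 at 24 h and 0.19 at 72 h. The 24 h call was lost without control mouse 1 or 3 or 24 h mouse 2 or 4, under DESeq2 (adjusted p 0.117), with no filter on low counts (edgeR adjusted p 0.111) and in edgeR's likelihood ratio test on 8 mice (adjusted p 0.0670).

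The falls joining at 72 h were small. Farsa and Farsb, the subunits of phenylalanyl synthetase, fell by 0.18 and 0.16, Kars, the lysyl enzyme, by 0.18, and Yars, the tyrosyl enzyme, by 0.24. The Farsb call was lost without control mouse 1 or 72 h mouse 2 or 3, that of Kars without control mouse 1 or 72 h mouse 3 or 4, and that of Yars without control mouse 1 or 3 or 72 h mouse 2 or 4, with changes down in size to -0.14, -0.14 and -0.20. Cars, the cysteinyl enzyme on chr7:143557230-143600090, minus strand, was at 11.8, 9.94, 11.3 and 10.4 CPM in control and at 8.04, 9.31, 10.7 and 8.46 at 72 h. The groups overlapped, the log2 fold change was -0.27 ± 0.10 (edgeR adjusted p 0.0378), and the call was lost without any of 5 mice (control mouse 1 or 3, or 72 h mouse 1, 2 or 4), with values from -0.37 to -0.20. DESeq2 did not call Cars, Yars or Hars at 72 h (adjusted p 0.103, 0.0528 and 0.0578).

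The makeup of the compartment differed between the libraries. The myeloid progenitor-like class described below made up 29.0% of control cells and 15.1% at 72 h, and the HSC-like class 9.82% and 16.8%. Because extra stem cells were added in the sort, these are shares of the captured cells and not of the bone marrow. The part of this addition in the shares was not tested. With each mouse's classes reweighted to the control shares and tested by limma, 7 synthetases passed at 72 h in place of 15, while over all genes 1779 of 11913 passed in place of 4500 of 12042. The reweighted fit differed from the main one in the class shares, the test, the mice and the cells. It left out control mouse 4, which had fewer than 10 cells in some classes. Cells outside the classes compared below were also left out. Which of these differences removed a call was not tested. Iars2, Sars, Vars, Lars and Nars stayed higher and Aars and Lars2 lower, while Farsb, Yars, Cars, Farsa, Kars, Qars, Yars2 and Hars no longer passed. Their log2 fold changes stayed below 0, Kars at -0.16 and Cars at -0.22 against -0.18 and -0.27 before, and Farsb at -0.11, Yars at -0.13, Farsa and Qars at -0.07, Yars2 at -0.08 and Hars at -0.11. At 24 h 8 passed in place of 10, without Rars2, Yars2 and Hars and with 1 more, and over all genes 1229 in place of 3405. At 3 h 13 passed as before, without Mars and with 1 more.

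Enzymes of the multi-synthetase complex moved in both directions. Of its 8 enzymes, 2 rose (Lars and Rars) and 2 fell (Mars and Qars) at 3 h. At 24 h 1 rose (Lars), and at 72 h 1 rose (Lars) and 2 fell (Kars and Qars). Genes at large also moved both ways, with 19.7% rising and 19.2% falling at 3 h. Their shares were 14.5% and 13.8% at 24 h, and 18.9% and 18.5% at 72 h. The counts of so short a list are a description only. In the whole compartment Eprs, the fused glutamyl-prolyl enzyme, Iars and Dars passed at no time. Of the 3 scaffold proteins, Aimp1 rose at every time, with log2 fold changes of 0.38, 0.21 and 0.12. Aimp2 fell by 0.26 at 24 h and 0.30 at 72 h, and Eef1e1 by 0.25 and 0.26. Gars and Kars serve both cytosol and mitochondria. Over the whole compartment Gars, the glycyl enzyme, passed at no time and Kars fell at 72 h.

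The remaining mitochondrial enzymes, 12 of 16, passed at no time in the whole compartment. Most were counted at low depth, Wars2 with 705 UMIs over all kept cells. Nars2, the asparaginyl enzyme of mitochondria, had log2 fold changes of -0.22 ± 0.13, -0.24 ± 0.10 and -0.25 ± 0.11 (edgeR adjusted p 0.191, 0.0914 and 0.0799) and did not pass the test. The mitochondrial amidotransferase subunits Qrsl1, Gatb and Gatc make glutaminyl-tRNA where no mitochondrial glutaminyl enzyme exists. They passed at no time in the whole compartment (0 of 3). Tarsl2, a further threonyl synthetase gene, rose at 72 h by 0.31.

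Summed over the 20 cytosolic enzymes, the level was 1311 ± 44.5 CPM in control (SD, n = 4) and 1445 ± 62.8 at 3 h, 1361 ± 47.1 at 24 h and 1335 ± 12.3 at 72 h. All 3 treated groups overlapped the controls. As CPM of the library without TMM factors, the 3 h mean of 1342 was just below the control mean of 1352, so that the direction at 3 h depends on the scaling. The 16 mitochondrial enzymes summed to 310 ± 2.38 in control and to 293 ± 9.11, 286 ± 2.03 and 282 ± 8.81, with no overlap at any time.

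With TMM factors, the lower mitochondrial sum rested on Lars2. This gene made up 25.5 to 29.2% of the mitochondrial UMIs in control mice and 14.6 to 20.2% in treated mice. Without Lars2 the sum was 226 ± 4.33 in control and 236 ± 8.98, 238 ± 2.60 and 237 ± 6.93. With both Lars2 and the TMM factors left out, it was 234 in control, 219 at 3 h and 242 at both 24 and 72 h. Every 3 h mouse (211.6 to 229.8) was then still below every control mouse (230.3 to 236.5). The log2 ratio of cytosolic to mitochondrial UMIs, which does not depend on the scaling, was 2.08 ± 0.06 in control and 2.30 ± 0.03, 2.25 ± 0.04 and 2.24 ± 0.03, with every treated mouse above every control mouse. Without Lars2 the differences of 0.22, 0.17 and 0.17 became 0.08, -0.02 and -0.04. The 3 h mice (2.60 to 2.64) then stayed above the control mice (2.48 to 2.58), while the 24 and 72 h mice overlapped them.

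**Figure D3:**
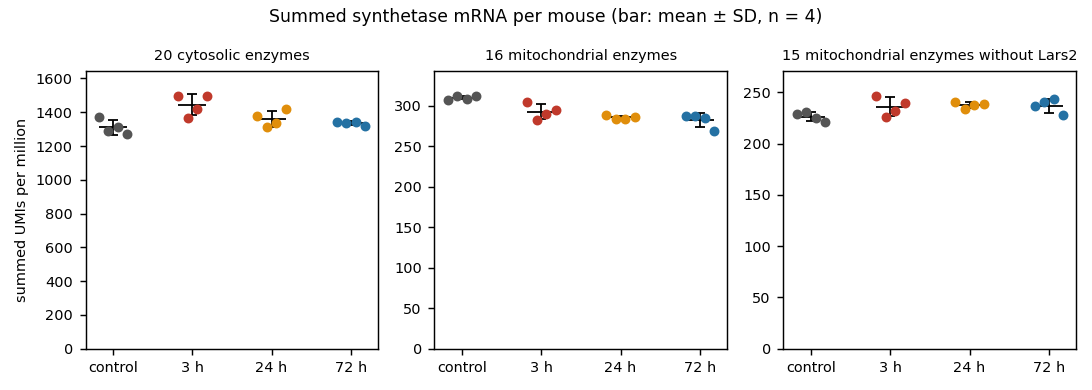
Summed CPM (TMM-scaled) of the 20 cytosolic enzymes, the 16 mitochondrial enzymes and the mitochondrial enzymes without Lars2, by time; each point is 1 mouse and bars are the mean ± SD of 4 mice. The mitochondrial sum lies at 308 to 312 in control and at or below 305 after treatment, and with Lars2 left out the treated means are above the control mean.

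Cells were also divided into classes by clustering the control cells and carrying the names to the treated cells, with the synthetases left out of the clustering. HSC-like, LMPP-like (lymphoid-primed), myeloid progenitor-like, erythroid progenitor-like and MK (megakaryocyte) progenitor-like cells were compared. A mouse entered a class with at least 10 cells, so that control mouse 4 was absent from the HSC-like, erythroid and MK classes, which had 3 control mice. The clusters within classes shifted: cluster 11 of the erythroid class, led by hemoglobin genes, was 38.7% of that class in control and 20% at 3 h, and cluster 4 of the LMPP-like class was 49.9% and 58.1%. In the myeloid class cluster 7, led by S100a8 and S100a9, was 25.1% in control and 7.03%, 9.09% and 9.76% at 3, 24 and 72 h, and cluster 6 was 27.3% in control and 41.7 to 43.4% after treatment. The part of these shifts in the results by class was not tested.

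Among control cells the erythroid class had the highest cytosolic synthetase sum, 1777 ± 73.4 CPM against 1063 ± 62.1 in the HSC-like class (SD, n = 3 each). The MK, LMPP-like and myeloid classes lay between at 1213 ± 55.1, 1144 ± 54.7 and 1336 ± 25.3. The HSC-like and LMPP-like mice overlapped, as did the LMPP-like and MK mice, and the myeloid and erythroid mice overlapped no other class. Hars had 107 CPM in erythroid cells and 34.2 to 39.1 in the other classes. Lars2 had the opposite order, from 117 in HSC-like cells to 54.6 in erythroid cells. These levels describe control cells and were not tested. They are shares of UMIs and not amounts per cell. Each class was scaled by its own totals and TMM factors, so that the classes are not on a common scale.

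Nars rose and Lars2 fell in nearly every class and time tested. Nars passed at 3 h in all 5 classes, with log2 fold changes of 0.80 in HSC-like, 1.01 in LMPP-like, 0.92 in myeloid, 0.59 in erythroid and 0.69 in MK cells. It also passed at 24 h except in HSC-like cells (0.40, adjusted p 0.105) and at 72 h except in erythroid cells (0.33, adjusted p 0.065). In erythroid cells at 24 h its log2 fold change of 0.32 had an edgeR adjusted p of 0.0411, which became 0.0595 under library size alone. Lars2 passed in all 5 classes at 24 and 72 h and in 4 at 3 h, all but erythroid cells (-0.33, adjusted p 0.275). Its values ran from -0.46 in LMPP-like cells at 3 h to -1.04 in MK cells at 72 h.

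In the HSC-like class 4 of 31 tested synthetases passed at 3 h, 1 at 24 h and 2 at 72 h, against 13.2%, 2.77% and 3.03% of all genes. Aars2, Mars2, Sars2, Vars2 and Wars2 were too low to be tested. Wars rose here the most of any synthetase, from 20.7, 18.6 and 17.7 CPM in the 3 control mice to 38.4, 26.1, 35.2 and 40.3 at 3 h, with no overlap (log2 fold change 0.85 ± 0.24, edgeR adjusted p 0.0110). Nars and Sars also rose, and Lars2 fell by 0.51 ± 0.14 (adjusted p 0.0118). Without control mouse 3 the count at 3 h was 2. At 24 h the call was Lars2 (-0.60 ± 0.12), and at 72 h Nars rose by 0.61 ± 0.13 and Lars2 fell by 0.82 ± 0.13 (adjusted p 0.00297 and 4.79e-05).

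In the LMPP-like class 9 of 36 passed at 3 h, 5 at 24 h and 7 at 72 h, against 19.5%, 7.21% and 6.37% of all genes. With library size alone as the scaling, 5 passed at 3 h and 3 at 72 h. At 3 h 8 rose and 1 fell, and Dars was among the rises at 3 and 72 h. Nars reached a log2 fold change of 1.01 ± 0.10 (edgeR adjusted p 5.53e-10), going from 85.8, 67.6, 72.3 and 125 CPM in control to 147, 162, 151 and 163. The highest control value was that of control mouse 4, and no treated mouse at 3 h overlapped it. At 24 h (94.1 to 110) and 72 h (98.2 to 118) every mouse was below control mouse 4 and above the other control mice. At 24 h Iars2 rose the most (0.50 ± 0.13, adjusted p 0.0137) and at 72 h Nars (0.51 ± 0.10, adjusted p 3.77e-04), while Lars2 fell by 0.74 ± 0.09 and 0.93 ± 0.09. The count at 72 h was 3 without control mouse 2 or 72 h mouse 2 and 4 without control mouse 3 or 72 h mouse 3 or 4. Within cluster 3 alone, 4, 2 and 3 passed.

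In the myeloid progenitor-like class 10 of 35 passed at 3 h, 8 at 24 h and 7 at 72 h, against 24.2%, 15.3% and 15.3% of all genes. Nars rose by 0.92 ± 0.08 at 3 h (edgeR adjusted p 1.19e-11), and Iars2, Sars, Rars, Lars, Tars, Cars2 and Gars rose with it. Iars2 rose the most at 24 h (0.48 ± 0.11, adjusted p 0.00222) and 72 h (0.65 ± 0.12, adjusted p 2.82e-04). Lars2 fell the most at each time, by 0.76 ± 0.10, 0.88 ± 0.08 and 0.90 ± 0.09. The count at 72 h was 4 without control mouse 1, 2 or 3 or 72 h mouse 3.

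The erythroid progenitor-like class had 1 rise and 4 falls at 3 h, 1 and 3 at 24 h and 0 and 1 at 72 h among 35 tested. These counts were near the background over all genes, 13.5%, 9.14% and 4.83% in either direction. Library size alone gave 8 at 3 h and 2 at 72 h, and DESeq2 gave 3 at both times. Nars was the rise (0.59 ± 0.11 at 3 h, adjusted p 3.29e-04). Yars fell by 0.66 ± 0.21 at 3 h (adjusted p 0.0340), and Hars by 0.58, Mars by 0.51 and Farsb by 0.46. At 24 h Lars2 fell by 0.75 ± 0.14 (adjusted p 5.24e-04) with Hars and Aars, and at 72 h Lars2 fell by 0.69 ± 0.15 (adjusted p 0.00568). The 3 h count was 1 without control mouse 1 or 3, 2 without 3 h mouse 1 or 3, and 3 without 3 h mouse 4, the 24 h count was 2 without control mouse 1 or 3, and the 72 h count rose to 2 without control mouse 2, 3 h mouse 1, 3 or 4, or 24 h mouse 1. The 3 h falls stood beside the lower share of cluster 11, and its part in them was not tested.

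In the MK progenitor-like class 3 of 34 passed at 3 h, 2 at 24 h and 3 at 72 h, against 11.4%, 3.55% and 4.03% of all genes. Nars rose by 0.69 ± 0.11, 0.55 ± 0.10 and 0.72 ± 0.10 (edgeR adjusted p 1.59e-05, 2.20e-04 and 3.92e-06). Vars joined at 3 h with 0.49 and Eprs at 72 h with 0.33. Lars2 fell from 90.1, 86.7 and 98.0 CPM in control to 52.0, 42.3, 37.1 and 42.2 at 72 h, a log2 fold change of -1.04 ± 0.14 (adjusted p 1.38e-06).

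**Figure D4:**
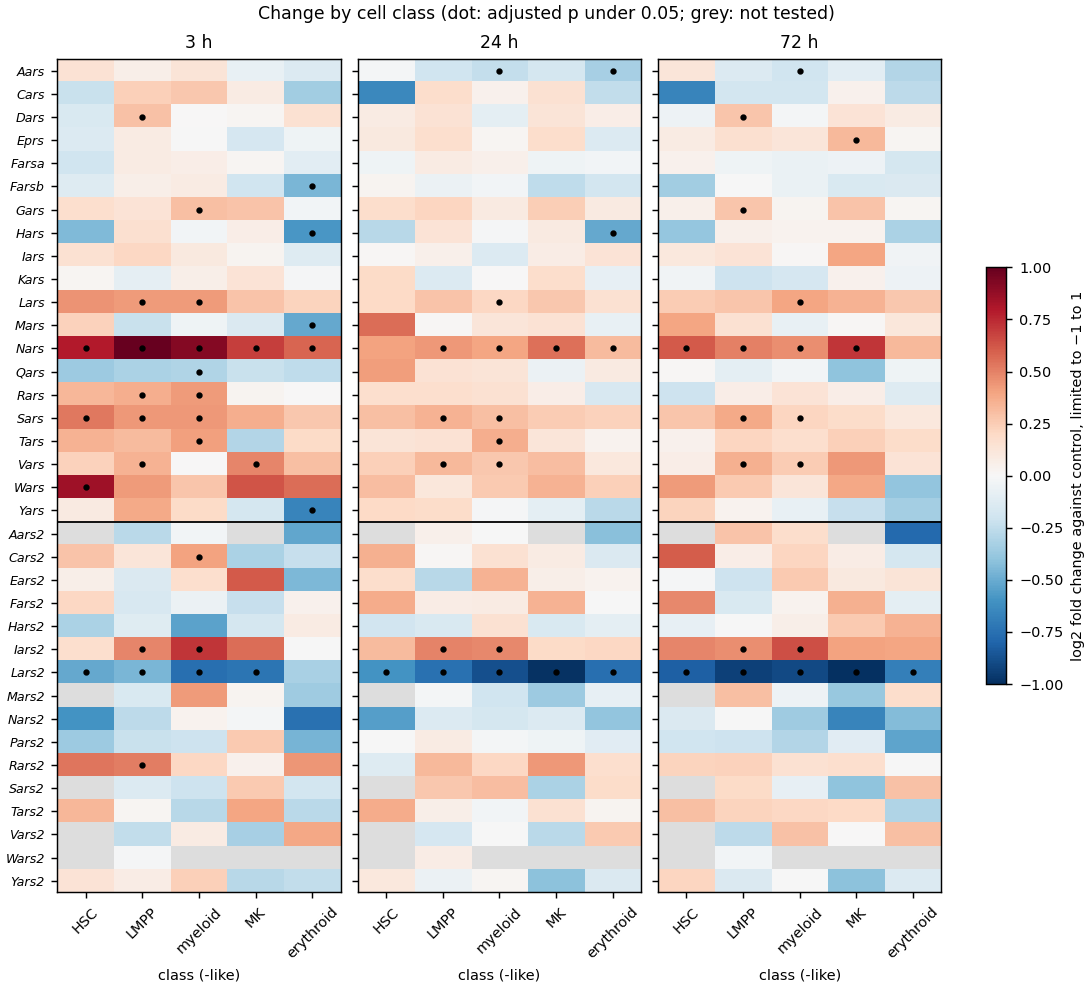
Log2 fold change against control of each synthetase (rows) by class and time (columns), with a colour scale limited to ±1; marked cells have an adjusted p under 0.05. Nars is higher and Lars2 lower across the classes, with Nars at 1.01 in LMPP-like cells at 3 h and Lars2 at -1.04 in MK cells at 72 h.

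Whether the HSC-like and myeloid classes responded differently was tested directly, by the class by time interaction in edgeR with the mouse as a block, in 15 mice. None of 34 synthetases passed at any time, against 2.54%, 1.26% and 0.506% of all genes at 3, 24 and 72 h, and 1 had an unadjusted p under 0.05 at each time. At 3 h this was Wars, whose change was larger in HSC-like cells by 0.64 ± 0.29 (adjusted p 0.327). At 24 h it was Lars2, which fell less in HSC-like cells by a difference of 0.30 ± 0.15 (adjusted p 0.473), and at 72 h Aars (0.39 ± 0.15, adjusted p 0.409). The Nars difference at 3 h was -0.06 ± 0.15.

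Genes around the synthetases were read from lists of the same pathways in the whole compartment. Over all genes 19.7% rose and 19.2% fell at 3 h, 14.5% and 13.8% at 24 h, and 18.9% and 18.5% at 72 h, so that the counts of these short lists are a description and many lay near the background. Of 30 amino acid response genes, which ATF4 controls, 27 were tested and 7 rose and 6 fell at 3 h, 4 and 2 at 24 h, and 2 and 7 at 72 h. Atf4 mRNA itself passed at no time, and Asns, the asparagine synthetase and a classical target, fell at 3 h by 0.57. Atf3 rose by 4.03, from 0.0809 to 1.94 CPM, and Nupr1, a stress-induced chromatin protein, by 2.07 at 3 h. Ddit4 fell by 0.68 and Vldlr rose by 0.64 at 3 h, Trib3, a feedback inhibitor, rose by 1.34 at 24 h, and Cebpb fell by 0.71 and Mthfd2 by 0.32 at 72 h.

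Of the 6 kinases and phosphatase subunits that act on eIF2α, 2 rose and 1 fell at 3 h, 2 rose and 2 fell at 24 h, and 2 rose and 1 fell at 72 h. Eif2ak2, the interferon-induced kinase PKR, rose by 2.82 at 3 h and 0.86 at 24 h. Eif2ak4, the kinase GCN2 that senses uncharged tRNA, rose by 0.28, 0.25 and 0.47, and Eif2ak3, the kinase PERK of the endoplasmic reticulum, fell by 0.83, 0.50 and 0.40.

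Of 17 cytosolic translation factors, 2 rose and 6 fell at 3 h, 2 and 5 at 24 h, and 2 and 4 at 72 h. Eif2s2, the beta subunit of eIF2, rose by 0.68 at 3 h. Of 10 mitochondrial translation factors, 2 rose and 2 fell at 3 h, none rose and 2 fell at 24 h, and 1 rose and 3 fell at 72 h. The elongation factors Tufm and Tsfm fell at every time, Tufm by 0.29, 0.24 and 0.44 and Tsfm by 0.18, 0.15 and 0.28. Among 13 genes of tRNA processing and proofreading, 2 rose and 1 fell at 3 h, 1 and 3 at 24 h, and 2 and 3 at 72 h. Aarsd1 rose by 1.23, 0.47 and 0.77, and Tsen34, a subunit of the tRNA splicing endonuclease, fell at 3 and 72 h by 0.30 and 0.31.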

How the data were processed

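Single-cell RNA counts were made by the authors with Cell Ranger 3.1.0 on mm10 and Seurat, per the submitters' processing notes. The deposited values are raw UMI counts per gene and cell (10x 3′ kit, stranded), and hashtag calls name the mouse of each cell. No column of another series was used (0).

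The members and all gene lists were chosen with earlier results of these data known. Cells with 1 hashtag, at most 5% mitochondrial UMIs and at least 700 genes were kept. Hashtag multiplets (452) and negatives (959) were removed, but doublets within 1 mouse were not. Counts were summed per mouse, filtered by filterByExpr, scaled by TMM and tested by edgeR 4.0.16 quasi-likelihood F tests (R 4.3.3) over all 16 mice, two-sided, with Benjamini-Hochberg adjustment over all genes tested, and the script was tested on simulated data. CPM (UMIs scaled to a common total per mouse) use TMM-scaled totals, except for marker lists, interferon genes and sums said to be without TMM. Because 3′ UMIs are counted once per molecule and not per length, levels are compared within a gene, and sums and shares are of UMIs.

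Control cells were clustered in scanpy 1.11.5 (500 variable genes without members and lists, 10 components, 15 neighbors, Leiden resolution 0.8). Labels were transferred to treated cells by nearest control cells after correction between libraries (2000 genes per library, 50 components). A cluster was named when at least 2 of its 10 leading genes were markers of the class, a rule set after the clusters were seen. Clusters that missed it stayed unnamed. A tie between classes went to the higher mean fold over the class markers. Cluster 4 of the LMPP-like class was such a tie, with 2 LMPP markers and 2 of another class. A mouse entered a class with at least 10 cells.

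Values in every mouse were given for Wars and for the 4 members with the largest absolute log2 fold change among those called at each time, and in each class the member with the largest rise and the largest fall was named. Alternatives were DESeq2 1.42.0, library size alone, no filter on low counts, a likelihood ratio test on 8 mice, no cell filter, control class shares by limma 3.58.1, a fold limit, removal of the trend with transcript length, uncorrected label transfer and leaving out each mouse. Positions are GRCm38 (mm10), GENCODE vM21, and shared sequence was sought with BLAST 2.17.0. A few items are not reported here.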

Additional observations from a re-analysis of the deposited data

Results flagged for a closer look

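One value lay apart from its group. The mitochondrial synthetases of 72 h mouse 4 summed to 269 CPM, while the other 3 mice at 72 h lay between 285 and 288. The gap was 0.854 of the group's range, above Dixon's 95% critical value for 4 samples. Among 36 groups of 4 mice tested, 1 was flagged, fewer than chance alone gives on average at the 95% level.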

How the results depend on the processing

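In the whole compartment the 13, 10 and 15 calls at 3, 24 and 72 h became 20 at 3 h under library size alone and 7 at 72 h with control class shares, and 0 at each time past a log2 fold change of 1. Leaving out each mouse gave 12 to 14, 7 to 10 and 11 to 15. Without control mouse 4 they were 14, 10 and 15. The difference of the log2 ratio of cytosolic to mitochondrial UMIs was 0.15, 0.054 and 0.016 when each gene had equal weight (mean log2 values). It was 0.081 at 3 h and changed sign at 24 and 72 h (-0.016 and -0.038) without Lars2. Leaving out each mouse gave 0.21 to 0.25, 0.15 to 0.20 and 0.15 to 0.19. By class, library size alone gave 5 at 3 h and 3 at 72 h (LMPP-like) and 8 and 2 at 3 and 72 h (erythroid), DESeq2 gave 4 at 72 h (myeloid) and 3 at both 3 and 72 h (erythroid), and LMPP-like cluster 3 alone gave 4, 2 and 3. Leaving out each mouse gave, at 3, 24 and 72 h, 2 to 4, 1 to 1 and 2 to 2 (HSC-like), 6 to 10, 4 to 6 and 3 to 7 (LMPP-like), 7 to 10, 6 to 9 and 4 to 7 (myeloid), 1 to 5, 2 to 4 and 1 to 2 (erythroid), 2 to 4, 2 to 2 and 2 to 4 (MK), and 0 to 0 for the interaction. The causes were not tested, apart from the members or cells an alternative leaves out by construction. Without the 3 h library, 10 and 15 members passed at 24 and 72 h. The runs without Lars2, without the 3 h library and within cluster 3 were chosen after seeing the data. The remaining values for counts stayed within 1.5 times the main count. After removal of the trend with transcript length, Aars at 72 h moved to -0.32. Genes with few UMIs, such as Wars2 and Aars2, limit what can be seen among mitochondrial enzymes. No paired analysis was possible because each mouse was sampled at 1 time point, the labels give no replicate number, and the hashtag numbers that recur between time points name only the antibody.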

Other observations

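Scaffold proteins and translation factors also moved within classes. In the myeloid progenitor-like class at 3 h, 2 of 3 scaffolds of the multi-synthetase complex rose, and 6 of 17 cytosolic translation factors rose and 4 fell, against 24.2% of all genes called in either direction. In the HSC-like class at 3 h, none of 3 scaffolds passed, and 3 of 17 translation factors rose and 3 fell, against 13.2% of all genes. The difference between these classes was not tested for the lists. Of the amino acid response genes tested in a class, 4 of 19 rose and 1 fell in myeloid cells at 3 h, and 1 of 18 rose and 2 fell in erythroid cells. Over all genes 24.2% and 13.5% were called in either direction in these classes, and the difference between them was not tested for this list.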
